A study of Mus musculus with 24 samples.

Results

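The Fc gamma receptor genes of mouse microglia, Fcgr1, Fcgr4, Fcgr3 and Fcgr2b, and Fcer1g, which encodes the signalling chain shared by the activating receptors, were followed across 8 groups of genotype and treatment. These 5 genes were taken by name from the 18919 genes of the count table, and all 5 were among the 13294 genes that passed the filter on low counts. Fc gamma receptors bind the constant part of IgG and let a phagocyte take up antibody-coated targets. The activating receptors signal through the Fcer1g chain, whose ITAM motif recruits the kinase Syk, whereas the inhibitory receptor encoded by Fcgr2b carries an ITIM motif that recruits the phosphatase SHIP1. Microglia, the resident macrophages of the brain, carry both kinds, and the relative level of activating and inhibitory receptors is regarded as setting how readily immune complexes trigger a response.

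Primary microglia from p0 mice were either wild type (C57BL/6) or CD14-deficient (B6.129S4-Cd14tm1Frm/J), a strain with a targeted Cd14 allele. CD14 is the surface protein that hands lipopolysaccharide to the TLR4 receptor complex. Each genotype was studied without stimulation and after 3 h with Re-LPS at 0.1 ng/ml, Re-LPS at 10 ng/ml (a lipopolysaccharide without O antigen) or mouse fibronectin (FN), a plasma and matrix protein, at 100 µg/ml. There were 3 libraries in each of the 8 groups, described by the submitters as independent preparations, and the labels give the wild type as a separate strain, with no mention of littermates. Levels are in CPM, a gene's counts brought to a common library size, with sizes corrected by TMM factors (trimmed mean of M-values), and differences are log2 fold changes ± standard error with an adjusted p from edgeR. Genes whose adjusted p lay under 0.05 are referred to as called. Unless a block for the replicate number is named, the fit leaves that number out. Same-numbered libraries of a genotype nevertheless deviated together.

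Libraries held 14939019 to 22143774 counts. Cd14 stood at 338 to 5330 CPM in the 12 wild-type libraries and at 2.14 to 6.37 CPM in the 12 CD14-deficient ones, which matches the genotype labels. All 10 microglial markers were detected, with a summed level of 6010 to 9160 CPM. Csf1r (1740 to 3730 CPM) was high, while P2ry12 (2.71 to 24.6 CPM) and Tmem119 (4.37 to 44.2 CPM) were low. Among other cells that bear Fc receptors, 3 of 6 neutrophil and monocyte markers were in the table and summed to at most 8.11 CPM, 4 of 5 B-cell markers to at most 1.48 CPM and 2 of 5 mast-cell markers to at most 8.89 CPM. The 2 of 6 NK and T-cell markers in the table summed to 1.93 to 3.89 CPM in wild type at LPS 10 ng/ml and to 1.82 to 2.89 CPM at FN, against 0.0987 to 0.189 CPM untreated. In CD14-deficient cells, where Fcgr1 and Fcgr4 were not called, they summed to 0.136 to 1.43 CPM at LPS 10 ng/ml and 0.325 to 1.2 CPM at FN, against 0 to 0.579 CPM untreated. All 8 vascular and fibroblast markers were in the table, and 4 of them stayed under 1 CPM in every library. Their sum was 2.89 to 4.05 CPM in untreated wild-type cells, 12.3 to 31.3 CPM at LPS 10 ng/ml and 11.7 to 25.3 CPM at FN. In CD14-deficient cells it was 1.77 to 4.51 CPM untreated, 20.1 to 32.0 CPM at LPS 10 ng/ml and 2.28 to 4.96 CPM at FN, so it was high in the 3 groups where Fcgr2b was called higher than untreated, with Pdgfrb alone reaching 29.3 CPM. Of the 5 border-macrophage markers 3 stayed under 1 CPM in every library, and Mrc1 and Pf4 brought the sum to 146 to 483 CPM. Oligodendrocyte-lineage markers summed to 50.1 to 325 CPM and differed by replicate number. In wild type the sum was 279 to 325 CPM in the 4 libraries numbered 2 and 50.1 to 133 CPM in the other 8. The part of these cells in the results below was not tested. Stimulation changed the composition of the libraries, with TMM factors of 1.18 to 1.3 in untreated wild-type libraries and 0.648 to 0.773 after FN. Scaling by library totals instead moved the median of all genes by -0.80 (wild type, LPS at 10 ng/ml), -0.78 (wild type, FN), -0.50 (CD14-deficient, LPS at 10 ng/ml) and -0.16 (CD14-deficient, FN) against untreated cells and by 0.68 between genotypes at FN, so changes here are relative to the median gene.

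Fcgr2b (chr1:170958617-170976547, minus strand), Fcgr4 (chr1:171018920-171029761, plus strand), Fcgr3 (chr1:171051174-171064935, minus strand) and Fcer1g (chr1:171229572-171234365, minus strand) lie within 275.7 kb of chromosome 1, and Fcgr1 (chr3:96282909-96293969, minus strand) lies on chromosome 3, in mm10 with GENCODE M21 genes. Fcgr3 and Fcgr2b encode closely related extracellular parts: 166 of the 1298 windows of 50 bases in the longest Fcgr3 transcript (12.8%) occur unchanged in Fcgr2b transcripts, so reads there could be assigned to either gene or dropped. Of 3495 Fcgr2b windows, 436 (12.5%) occur in transcripts of 145 other genes, 166 of them (4.75%) in those of Fcgr3. For Fcgr1, Fcgr4 and Fcer1g no window was shared with another gene. An antisense gene, Gm38204, covers 155 exon bases of Fcgr2b, and whether counting used the strand is not given in the sources used here.

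The promoters of Fcgr1 and Fcgr4, genes on different chromosomes, are shown. Both genes were called higher in wild type at LPS 10 ng/ml and FN. In the fit of the 8 groups neither was called in a stimulated CD14-deficient group, which is why they were picked. Fcgr2b and Fcer1g were called higher at both wild-type stimuli too, and of the pair shown only Fcgr4 was called between wild-type LPS doses. The 250 bases before the RefSeq start (GRCm38.p6, the build of mm10) are given 5′ to 3′ on the gene's strand, with capitals marking matches to the motifs described next. The Fcgr1 stretch is chr3:96293970-96294219 (minus strand) and the Fcgr4 stretch chr1:171018676-171018925 (plus strand).
Fcgr1: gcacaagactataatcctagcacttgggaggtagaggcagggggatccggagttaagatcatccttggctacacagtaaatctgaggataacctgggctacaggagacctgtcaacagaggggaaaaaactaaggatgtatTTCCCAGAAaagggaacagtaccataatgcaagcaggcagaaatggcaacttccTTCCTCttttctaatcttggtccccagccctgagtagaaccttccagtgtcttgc
Fcgr4: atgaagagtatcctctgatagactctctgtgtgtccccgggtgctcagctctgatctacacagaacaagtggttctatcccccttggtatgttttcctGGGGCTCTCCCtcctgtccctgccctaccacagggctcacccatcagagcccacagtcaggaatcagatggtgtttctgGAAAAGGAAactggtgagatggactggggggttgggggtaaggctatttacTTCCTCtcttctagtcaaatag
Of the members' 6 RefSeq start sites, all matched by symbol, both strands were searched for 4 motifs: the core GAGGAA bound by PU.1, a macrophage factor, the interferon-gamma activated site TTCNNNGAA, the interferon-stimulated response element core GAAANNGAA and the NF-kB site. Fcgr1 held TTCCCAGAA at -109 to -101 and TTCCTC, the reverse complement of the PU.1 core, at -55 to -50. Fcgr4 held a pair of overlapping NF-kB matches from -152 to -142, GAAAAGGAA at -73 to -65 and TTCCTC at -22 to -17. At its upstream start, Fcgr3 also held overlapping NF-kB matches from -152 to -142 and TTCCTC at -6 to -1. The Fcgr2b and Fcer1g stretches held none of the 4 motifs in these windows. Over 32851 promoters of the same length, 23.3% held the PU.1 core, 7.02% the interferon-gamma activated site, 7.13% the response element core and 25.0% the NF-kB site, so matches of this kind are common and are given as descriptions only.

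Levels of different genes were compared per kilobase of the longest transcript. Fcer1g was the highest in every group, at 926 ± 46.9 CPM per kb in untreated wild-type cells (SD, n = 3) and 858 ± 61.4 in untreated CD14-deficient cells, with all 3 libraries above the next gene. Fcgr3 came next in untreated wild-type cells at 429.6 ± 47.2 CPM per kb. Fcgr2b (64.7 ± 5.3), Fcgr1 (57.5 ± 6.78) and Fcgr4 (38.95 ± 18.7) followed, each overlapping its neighbour in this order. Fcgr3 kept the second place in 7 of 8 groups. In CD14-deficient cells at LPS 10 ng/ml Fcgr2b (279 ± 75.6 CPM per kb) stood above Fcgr3 (239.6 ± 99.0), with overlapping libraries. Counted per kilobase of all annotated exons, which for Fcgr2b is 5790 bases rather than 3544, Fcgr3 was second there too, and Fcgr2b came last rather than in the middle in wild-type cells at LPS 10 ng/ml and FN.

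**Figure D1:**
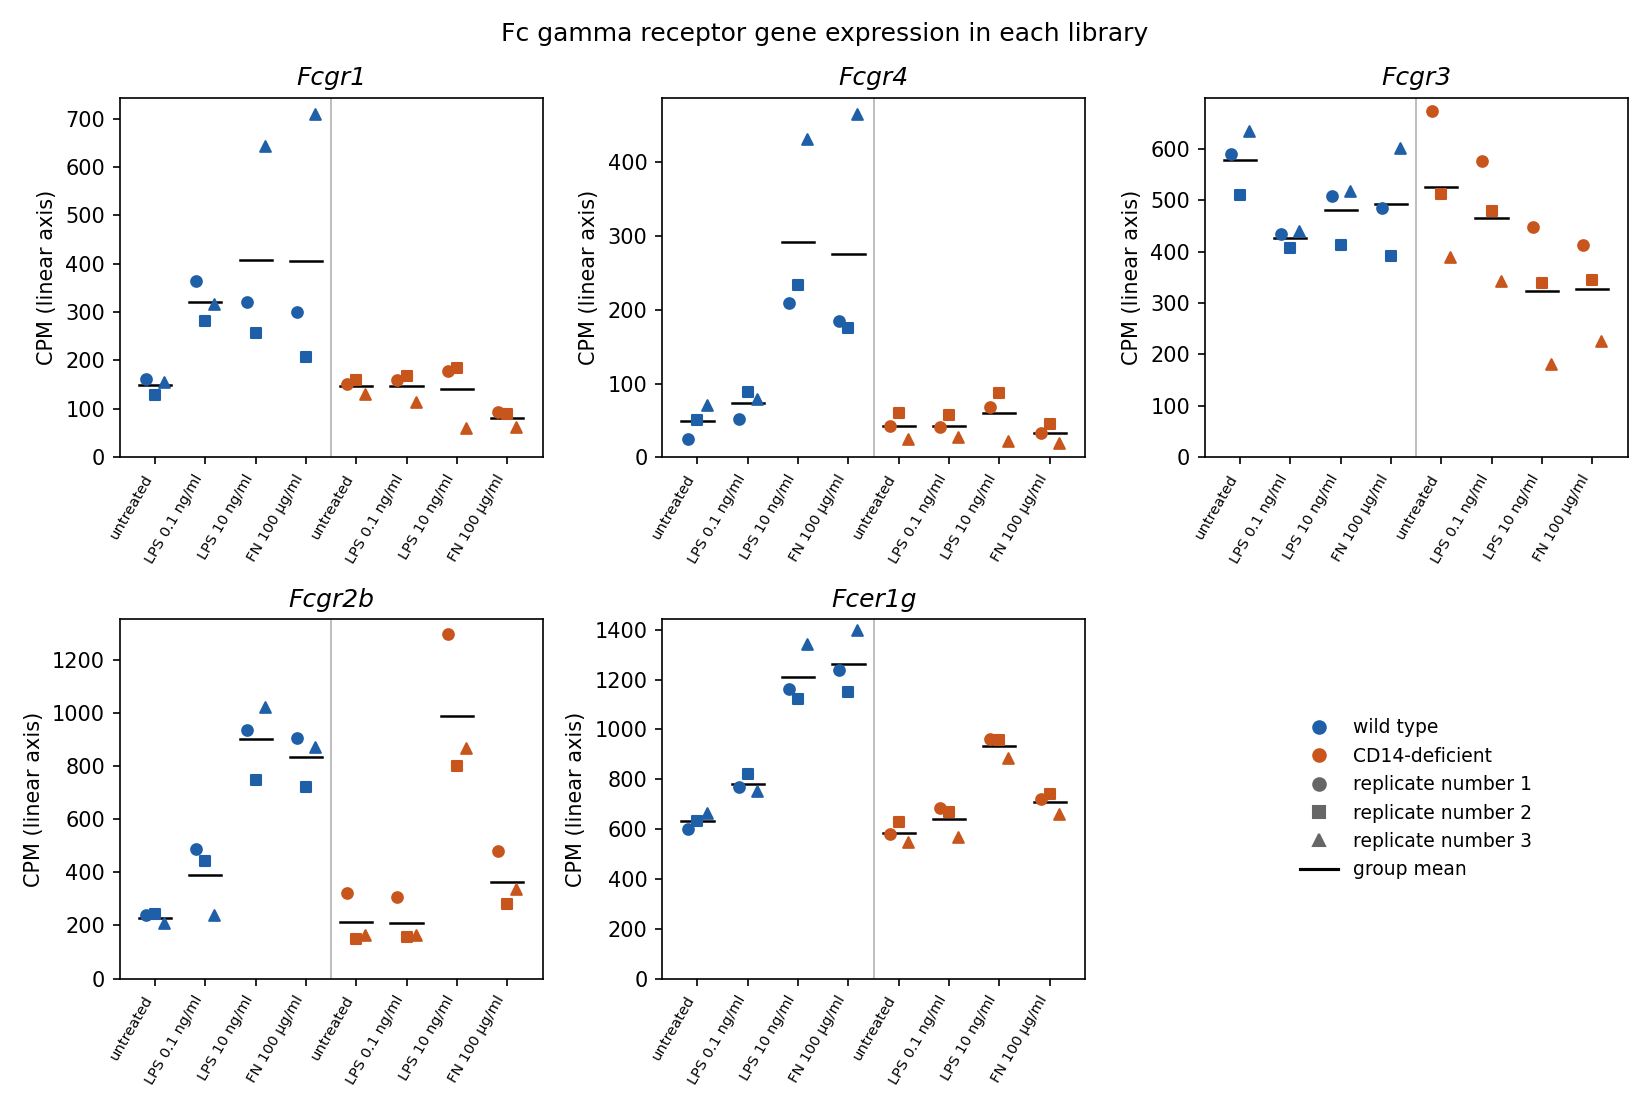
CPM (linear axis) of the 5 genes in each of the 24 libraries, wild type in blue and CD14-deficient in orange, with symbols for the replicate number of the labels and a line for the group mean. Fcgr1 and Fcgr4 rise to 644 and 432 CPM in the wild-type library numbered 3 at LPS 10 ng/ml and reach at most 185 and 87.7 CPM in the CD14-deficient groups, whereas Fcgr2b reaches 1295 CPM in a CD14-deficient library.

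Fcgr1 encodes the high-affinity IgG receptor. In wild-type cells it read 162, 129 and 156 CPM untreated (libraries 1, 2 and 3), 365, 283 and 316 CPM at LPS 0.1 ng/ml, 320.2, 256 and 644 CPM at LPS 10 ng/ml, and 299, 208 and 709.9 CPM at FN. All 9 stimulated libraries lay above the 3 untreated ones, and library 3 stood far above the other two at LPS 10 ng/ml and FN. In CD14-deficient cells it read 151, 159.7 and 131 CPM untreated, 159, 168 and 115 CPM at LPS 0.1 ng/ml, 178, 185 and 61.0 CPM at LPS 10 ng/ml, and 93.6, 88.7 and 63.4 CPM at FN. Here library 3 was the lowest in each group, LPS groups overlapped untreated cells, and all 3 FN libraries lay below them. Fcgr1 rose in wild-type cells by 1.45 ± 0.43 at LPS 10 ng/ml (adjusted p = 0.00786) and by 1.45 ± 0.43 at FN (0.00793). In CD14-deficient cells the values were -0.06 ± 0.42 at LPS 10 ng/ml (0.957) and -0.85 ± 0.42 at FN (0.204). The FN value was called with the replicate number as a block nested in genotype (-0.87, 0.0337), in a fit of the FN and untreated groups alone (-0.85, 0.0309) and without all libraries numbered 3 (-0.77, 0.0232). The LPS value of -0.06 turned to 0.30 without CD14-deficient LPS 10 library 3 (0.64), to 0.0046 without CD14-deficient untreated library 2 and to 0.23 without all libraries numbered 3. Without library 3 of the stimulated group the wild-type rises were 0.95 at LPS 10 ng/ml (0.0763) and 0.77 at FN (0.118), and with library totals 0.64 (0.191) and 0.67 (0.175), so both calls were lost in each of these settings. Both held without all libraries numbered 3, at 0.99 (0.00194) and 0.80 (0.00616), and with the nested replicate block, at 1.33 (0.00149) and 1.28 (0.00201). In bulk RNA, fewer cells of a type and less RNA per cell cannot be told apart, for this and the following genes.

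Fcgr4 encodes an activating receptor of intermediate affinity for some IgG subclasses. Wild-type libraries 1, 2 and 3 held 24.7, 50.5 and 71.5 CPM untreated, 51.6, 88.7 and 79.3 CPM at LPS 0.1 ng/ml, 209, 234 and 432 CPM at LPS 10 ng/ml, and 185, 176 and 465 CPM at FN. LPS at 10 ng/ml and FN put every library above all at the lower dose, which itself overlapped untreated cells. CD14-deficient libraries held 42.2, 60.3 and 25.3 CPM untreated, 41.8, 57.5 and 27.7 CPM at LPS 0.1 ng/ml, 68.7, 87.7 and 22.6 CPM at LPS 10 ng/ml, and 33.0, 45.1 and 19.4 CPM at FN. These 4 groups overlapped one another, and in each the order of the libraries was 2, 1, 3. Fcgr4 rose in wild-type cells by 2.57 ± 0.55 at LPS 10 ng/ml, a 5.96-fold rise (adjusted p = 0.000688), and by 2.49 ± 0.55 at FN (0.000873). These rises were the greatest of the 5 genes in log2 terms and stayed called with library totals, at 1.75 and 1.70. In CD14-deficient cells the values were 0.48 ± 0.52 at LPS 10 ng/ml (0.529) and -0.39 ± 0.52 at FN (0.767), and the former turned to -0.02 with library totals.

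Fcgr3 encodes the low-affinity activating receptor. It read 590.2, 510.0 and 636 CPM in untreated wild-type cells, 435, 406 and 439.8 CPM at LPS 0.1 ng/ml, 509, 413 and 519 CPM at LPS 10 ng/ml, and 485, 391 and 601 CPM at FN. Only the low dose gave libraries all below untreated ones. In CD14-deficient cells it read 674, 513 and 390.3 CPM untreated, 577, 478 and 344 CPM at LPS 0.1 ng/ml, 447, 339 and 182 CPM at LPS 10 ng/ml, and 413, 345 and 226 CPM at FN. The order of libraries was 1, 2, 3 in all 4 groups. In both genotypes each stimulated library was below the untreated library of its own number. The main edgeR fit, which leaves out the replicate number, called no Fcgr3 change. Its values were -0.27 ± 0.28 (adjusted p = 0.495) and -0.23 ± 0.28 (0.562) in wild type at LPS 10 ng/ml and FN. In CD14-deficient cells they were -0.70 ± 0.29 (0.0549) and -0.68 ± 0.29 (0.122). At LPS 10 ng/ml in CD14-deficient cells the change was called by DESeq2 (-0.67, 0.0403), by limma (-0.76, 0.0381), with a filter of 5 CPM (-0.72, 0.0448) and without all libraries numbered 3 (-0.595, 0.0393). With the replicate number as a block nested in genotype, all 4 were called, at -0.27 (0.018), -0.24 (0.0296), -0.76 (1.4e-06) and -0.69 (1.28e-05). With library totals 3 of the 4 were called, at -1.08 (0.00218), -1.02 (0.00319) and -1.21 (0.0013), and CD14-deficient FN stood at -0.82 (0.0514).

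Fcgr2b encodes the inhibitory receptor. Wild-type libraries held 239, 241 and 208 CPM untreated, 486, 441 and 238 CPM at LPS 0.1 ng/ml, 935, 748 and 1022 CPM at LPS 10 ng/ml, and 904, 721 and 872 CPM at FN. LPS at 10 ng/ml and FN lifted every library above all untreated and low-dose libraries, while low-dose library 3 lay at the untreated level. CD14-deficient libraries held 322, 150.3 and 166 CPM untreated, 309, 156 and 164 CPM at LPS 0.1 ng/ml, 1295, 802 and 867 CPM at LPS 10 ng/ml, and 478, 279 and 338 CPM at FN. LPS at 10 ng/ml again separated fully from the rest, and FN overlapped untreated cells only through untreated library 1, at 322 CPM. Library 1 was the highest in all 4 CD14-deficient groups, as were its border-macrophage markers. These summed to 330 to 374 CPM there, against 146 to 223 CPM in libraries 2 and 3. In wild type their sum was 405 to 483 CPM in libraries numbered 2 and 334 to 426 CPM in those numbered 1. It was 209 to 277 CPM in those numbered 3. Wild-type Fcgr2b was lowest in library 3 untreated and at LPS 0.1 ng/ml, and in library 2 at LPS 10 ng/ml and FN. The part of border macrophages in the level was not tested. Fcgr2b rose at LPS 10 ng/ml in both genotypes, by 1.98 ± 0.34 in wild type (3.93-fold, adjusted p = 6.92e-05) and by 2.22 ± 0.34 in CD14-deficient cells (4.65-fold, 3.21e-05). At FN it rose by 1.86 ± 0.33 in wild type (0.000122), and the value in CD14-deficient cells was 0.78 ± 0.33 (0.12), which was called at 0.83 (0.00182) with the nested replicate block and at 1.21 (0.0231) without CD14-deficient untreated library 1. The 3 calls of the main fit held with library totals, at 1.17, 1.72 and 1.07.

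Fcer1g encodes the common signalling chain, which the activating receptors need to reach the cell surface. It read 601, 632 and 665 CPM in untreated wild-type cells, 770.1, 820.2 and 752 CPM at LPS 0.1 ng/ml, 1163, 1122 and 1343 CPM at LPS 10 ng/ml, and 1239, 1152 and 1399 CPM at FN. Each wild-type stimulus put all its libraries above the untreated ones. In CD14-deficient cells it read 582, 629.7 and 546 CPM untreated, 686, 669 and 567 CPM at LPS 0.1 ng/ml, 962, 956 and 885 CPM at LPS 10 ng/ml, and 720.3, 742 and 660.0 CPM at FN. LPS at 10 ng/ml and FN again lay wholly above untreated cells, but CD14-deficient LPS 10 libraries all lay below those of wild type. Fcer1g rose in wild type by 0.93 ± 0.11 at LPS 10 ng/ml (adjusted p = 8.49e-07) and by 0.998 ± 0.11 at FN (3.75e-07), and in CD14-deficient cells by 0.67 ± 0.11 at LPS 10 ng/ml (5.71e-05). Its value in CD14-deficient cells at FN was 0.27 ± 0.11 (0.0997), called with the nested replicate block (0.00439). Every one of these calls was lost with library totals, where the values were 0.13 (0.428), 0.21 (0.194) and 0.18 (0.297), so the rise of Fcer1g is one relative to the median gene.

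The order of the groups differed between genes. Fcgr1 was highest in wild-type LPS 10 ng/ml (407 ± 208 CPM, SD, n = 3), FN (406 ± 267) and LPS 0.1 ng/ml (321 ± 41.5), which overlapped one another and together stood above the rest, and lowest in CD14-deficient FN (81.9 ± 16.2). Fcgr4 was highest in wild-type LPS 10 ng/ml (292 ± 122 CPM) and FN (275 ± 164), with the other 6 groups overlapping from neighbour to neighbour between 73.2 and 32.5 CPM. Fcgr2b led in CD14-deficient LPS 10 ng/ml (988 ± 268 CPM), overlapping wild-type LPS 10 ng/ml (902 ± 140.0) and FN (832 ± 98.1). Fcer1g followed the order wild-type FN (1263 ± 126 CPM) with LPS 10 ng/ml (1209 ± 117), then CD14-deficient LPS 10 ng/ml (934 ± 43.1), then wild-type LPS 0.1 ng/ml (781 ± 35.2), each step without overlap except the first. Fcgr3 was highest in the untreated groups, 579 ± 63.6 and 526 ± 142 CPM, and every neighbour in its order overlapped.

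In numbers, LPS at 10 ng/ml and FN each raised 4 of the 5 genes in wild-type cells, where 49.4% and 50.2% of all genes tested were called in either direction. In CD14-deficient cells LPS at 10 ng/ml raised Fcgr2b and Fcer1g, 2 of 5. Of all genes 42.9% were called there in either direction and 21.2% were raised. At this stimulus 3 members had an unadjusted p under 0.05, 3 were called by DESeq2 and 3 by limma. The added gene was Fcgr3, which was lower. In the same cells FN was called for 0 of 5 by edgeR, against 16.4% of all genes in either direction. There 3 had an unadjusted p under 0.05, 1 was called by DESeq2 and 0 by limma. LPS at 0.1 ng/ml was called for 0 of 5 in wild type, against 15.6%, with 3 at an unadjusted p under 0.05, 2 by DESeq2 and 0 by limma, and for 0 of 5 in CD14-deficient cells, against 0.73%, with 0 at an unadjusted p under 0.05 and 0 by either other tool. With the nested replicate block the counts were 5 of 5 for wild-type LPS 0.1 ng/ml (41.5% of all genes), LPS 10 ng/ml (70.2%) and FN (72.0%), 3 of 5 for CD14-deficient LPS 10 ng/ml (66.0%) and 4 of 5 for CD14-deficient FN (44.0%). The wild-type low-dose values under the block were 1.12 for Fcgr1 (adjusted p = 0.00944), 0.68 for Fcgr4 (0.0376), -0.43 for Fcgr3 (0.00148), 0.74 for Fcgr2b (0.00454) and 0.31 for Fcer1g (0.00192). Without the block they were 1.11 ± 0.42 (0.089), 0.58 ± 0.52 (0.595), -0.44 ± 0.28 (0.388), 0.76 ± 0.33 (0.14) and 0.30 ± 0.11 (0.0663). Without wild-type LPS 0.1 library 3 the Fcgr2b value was 1.02 (0.038), and without wild-type FN library 3 or CD14-deficient LPS 10 library 3, which are in neither group, Fcgr1 kept its value of 1.11 with an adjusted p of 0.0407 or 0.0456. The shares of all genes are from edgeR fits, and none is given for DESeq2 or limma. These comparisons share the untreated libraries of a genotype, and a called share near that of all genes says nothing particular about the receptors.

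**Figure D2:**
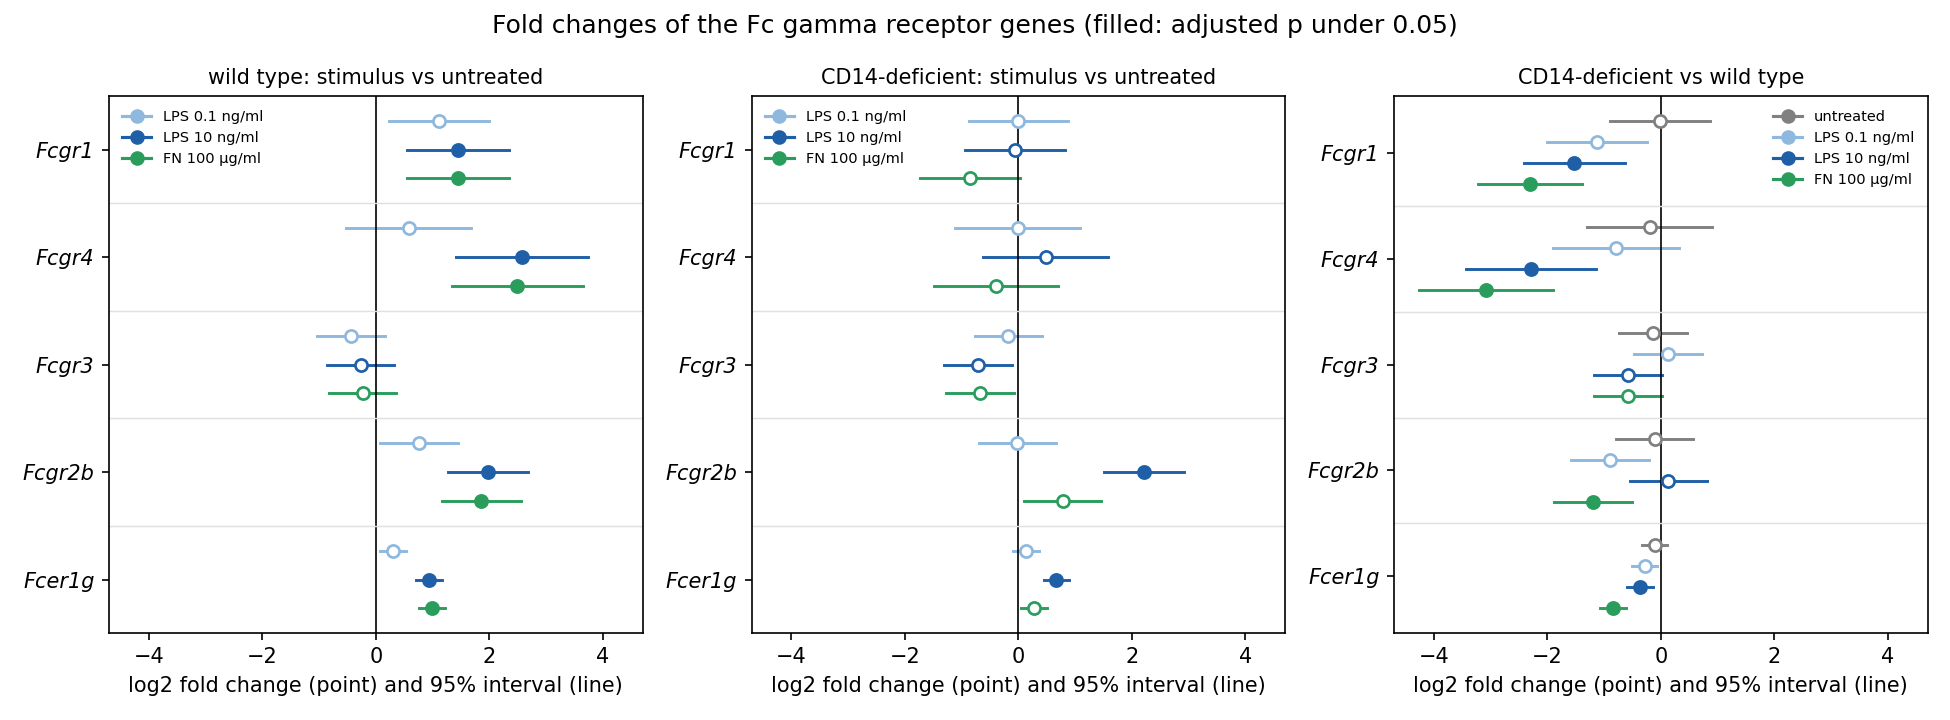
Log2 fold changes (points) with 95% intervals (lines) of the 5 genes, for each stimulus against untreated cells in wild-type and in CD14-deficient microglia and for CD14-deficient against wild-type cells at each treatment; filled points have an adjusted p under 0.05. For Fcgr1 and Fcgr4 the wild-type panel shows called rises of 1.45 and 2.57 at LPS 10 ng/ml and the CD14-deficient panel none, whereas Fcgr2b rises by 1.98 and 2.22. The fit leaves out the replicate number.

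The genotypes were compared directly at each treatment, asking whether the response runs through CD14. Untreated cells showed 0 of 5 called by edgeR, DESeq2 or limma and 0 at an unadjusted p under 0.05, with 0.00752% of all genes called. At LPS 0.1 ng/ml 0 of 5 were called, against 9.3% of all genes, with 3 at an unadjusted p under 0.05, 3 by DESeq2 and 0 by limma. The 3 with an unadjusted p under 0.05 were Fcgr1 at -1.12 ± 0.42 (adjusted p = 0.108), Fcgr2b at -0.89 ± 0.33 (0.0991) and Fcer1g at -0.29 ± 0.11 (0.113). With a replicate block over all libraries Fcgr2b was called there at -0.93 (0.00876), 1 of 5 against 18.9% of all genes. Fcgr2b was also called at -1.28 (0.0305) without CD14-deficient LPS 0.1 library 1 and at -1.15 (0.026) without wild-type LPS 0.1 library 3. Its libraries overlapped between genotypes, whereas all CD14-deficient Fcgr1 libraries lay below those of wild type. Fcgr1 was called by DESeq2 (-1.12, 0.0445), in a fit of these 2 groups alone (-1.12, 0.0494) and without all libraries numbered 3 (-0.99, 0.00757). With the block over all libraries it was not called (-1.11, 0.0836).

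At LPS 10 ng/ml, 3 of 5 were lower in CD14-deficient cells, against 15.9% of all genes in either direction. Fcgr4 was lower by 4.88-fold (-2.29 ± 0.55, adjusted p = 0.00683), Fcgr1 by 2.87-fold (-1.52 ± 0.43, 0.019) and Fcer1g by 1.29-fold (-0.37 ± 0.11, 0.0238), each with all 3 libraries below those of wild type. The value for Fcgr2b was 0.13 ± 0.32 (0.902), with a 95% interval of -0.55 to 0.81, and it became -0.11 without CD14-deficient library 1. Fcgr3 stood at -0.57 ± 0.29 (0.213). In a fit of these 2 groups alone none of the 3 calls held, with adjusted p of 0.0709 for Fcgr4, 0.165 for Fcgr1 and 0.178 for Fcer1g. The Fcgr1 value fell to -1.16 (0.0963) without CD14-deficient library 3, to -1.03 (0.13) without wild-type library 3 and to -0.66 (0.0515) without all libraries numbered 3, a setting in which Fcgr4 stood at -1.499 (0.0256) and Fcer1g at -0.25 (0.104). Fcer1g lost its call without CD14-deficient library 2 (0.0541), without CD14-deficient library 3 (0.107), without wild-type library 3 (0.116) and with no filter on low counts (0.0774), and stood at -0.05 (0.847) with library totals.

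At FN, 4 of 5 were lower in CD14-deficient cells, against 38.6% of all genes in either direction. Fcgr4 was lower by 8.46-fold (-3.08 ± 0.56, adjusted p = 0.000245), Fcgr1 by 4.95-fold (-2.31 ± 0.44, 0.000329), Fcgr2b by 2.28-fold (-1.19 ± 0.33, 0.00711) and Fcer1g by 1.79-fold (-0.84 ± 0.11, 6.36e-06). In all 4 no CD14-deficient library reached a wild-type one. Fcgr3 stood at -0.59 ± 0.29 (0.12). It was called at -0.63 (0.0456) with the replicate block over all libraries, making 5 of 5 against 50.1% of all genes, but stood at 0.07 (0.843) with library totals. Library totals also ended the calls of Fcgr2b (-0.54, 0.0989) and Fcer1g (-0.18, 0.29), and leaving out all libraries numbered 3 ended that of Fcgr2b (-1.10, 0.0713). The Fcgr1 and Fcgr4 calls held with library totals, at -1.65 (0.00276) and -2.42 (0.00163), and without all libraries numbered 3, where the values were -1.48 (0.00026) and -2.21 (0.00117).

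The interaction, the log2 response of CD14-deficient cells minus that of wild type, tests whether the responses differ. At FN it was -2.88 ± 0.75 for Fcgr4 (adjusted p = 0.00871), -2.29 ± 0.60 for Fcgr1 (0.00854) and -0.73 ± 0.15 for Fcer1g (0.00176), so 3 of 5 were called, against 23.1% of all genes. Without all libraries numbered 3 the Fcgr1 value was -1.57 (0.00293). Fcgr2b (-1.08 ± 0.46, 0.106) and Fcgr3 (-0.45 ± 0.40, 0.532) were not. Under the nested replicate block both were, at -1.03 (0.00373) and -0.45 (0.0108), making 5 of 5 against 49.3%, while Fcgr3 turned to 0.20 (0.748) and Fcer1g fell to -0.08 (0.805) with library totals. At LPS 10 ng/ml 0 of 5 were called, against 5.28% of all genes, with 2 at an unadjusted p under 0.05, 1 by DESeq2 and 0 by limma. The values were -2.09 ± 0.75 for Fcgr4 (0.135), -1.51 ± 0.59 for Fcgr1 (0.189), -0.43 ± 0.40 for Fcgr3 (0.813), -0.26 ± 0.15 for Fcer1g (0.493) and 0.24 ± 0.46 for Fcgr2b (1). With the nested replicate block Fcgr4 (-2.20, 0.000497), Fcgr1 (-1.50, 0.0247) and Fcgr3 (-0.49, 0.0154) were called, 3 of 5 against 21.7%. At LPS 0.1 ng/ml 0 of 5 interactions were called, against 2.29%, with 0 at an unadjusted p under 0.05 and 0 by DESeq2 or limma.

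Doses and stimuli were then set against each other within a genotype. From 0.1 to 10 ng/ml LPS, wild-type Fcgr4 rose by 1.99 ± 0.54 (adjusted p = 0.00806), Fcgr2b by 1.21 ± 0.33 (0.0079) and Fcer1g by 0.63 ± 0.11 (0.000199). That made 3 of 5, against 32.2% of all genes called in either direction and 14.8% higher. Fcgr1 was not called between doses, and its wild-type libraries at the 2 doses overlapped. Without the 3 libraries rich in the ribosomal precursor Rn45s, which include library 3 of both wild-type doses, Fcgr4 stood at 1.66 (0.105) and Fcgr2b at 0.86 (0.129). Without wild-type LPS 0.1 library 3 alone Fcgr2b stood at 0.96 (0.0556), and without all libraries numbered 3 at 0.86 (0.194). With library totals the Fcer1g call was lost (0.067, 0.746). In CD14-deficient cells Fcgr2b rose by 2.24 ± 0.34 (4.23e-05) and Fcer1g by 0.54 ± 0.11 (0.000612) between doses. That made 2 of 5, against 36.7% of all genes in either direction and 18.3% higher. Fcgr3 was at -0.53 ± 0.29 (0.163) there and was called at -0.59 (3.52e-05) with the nested replicate block, 3 of 5 against 62.8%. With library totals Fcgr3 was called there at -0.96 (0.00848), and the Fcer1g call was lost (0.13, 0.475). Between FN and LPS at 10 ng/ml in wild type the libraries of all 5 genes overlapped, with 0 of 5 called against 0% of all genes, 0 at an unadjusted p under 0.05 and 0 by DESeq2 or limma. In CD14-deficient cells Fcgr2b was lower at FN than at LPS 10 ng/ml by 2.71-fold (-1.44 ± 0.33, 0.00537) and Fcer1g by 1.32-fold (-0.40 ± 0.11, 0.0153). That made 2 of 5, against 17.0% of all genes in either direction and 9.43% lower. Fcgr4 stood at -0.88 ± 0.53 (0.316) and was called at -0.80 (0.0186) with the nested replicate block, 3 of 5 against 44.8%. The Fcer1g call between FN and LPS was lost without CD14-deficient FN library 3 (0.0679), without CD14-deficient LPS 10 library 1 (0.0566), in a fit of the 2 groups alone (0.0982) and with library totals (0.856).

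The balance of activating to inhibitory receptor was followed as the ratio of counts within a library, which does not depend on scaling. The counts are not length-corrected, so only the movement of a ratio between groups is read. For Fcgr4 to Fcgr2b the log2 ratio was -2.36 ± 0.87 in untreated wild-type cells (SD, n = 3), -1.69 ± 0.46 at LPS 10 ng/ml and -1.74 ± 0.74 at FN. In CD14-deficient cells it went from -2.32 ± 0.87 untreated to -4.23 ± 1.03 at LPS 10 ng/ml and -3.54 ± 0.80 at FN. At both of these stimuli every CD14-deficient library lay below every wild-type one. Fcgr1 to Fcgr2b went in wild type from -0.63 ± 0.25 to -1.25 ± 0.51 and -1.23 ± 0.81, and in CD14-deficient cells from -0.45 ± 0.60 to -2.93 ± 0.86 and -2.14 ± 0.42. The genotypes did not overlap at LPS 10 ng/ml, but did at FN, where the highest CD14-deficient library was at -1.65 and the lowest wild-type one at -1.79. Fcgr3 to Fcgr2b went from 1.33 ± 0.27 to -0.90 ± 0.06 and -0.77 ± 0.20 in wild type and from 1.36 ± 0.37 to -1.68 ± 0.52 and -0.16 ± 0.45 in CD14-deficient cells. Every untreated library of both genotypes held more Fcgr3 than Fcgr2b counts, and every library at LPS 10 ng/ml held fewer. Wild-type libraries at FN also held fewer, while CD14-deficient ones lay on either side, from -0.58 to 0.31. This crossing holds for counts only. Per kilobase of the longest transcript, wild-type Fcgr3 stayed above Fcgr2b without overlap at LPS 10 ng/ml (means of 356.5 and 254.4 CPM) and FN (365.5 and 234.8 CPM). In CD14-deficient cells at LPS 10 ng/ml Fcgr2b averaged higher per kilobase (278.8 against 239.6 CPM), with overlapping libraries. At LPS 0.1 ng/ml the ratios of CD14-deficient cells, -0.45 ± 0.54 for Fcgr1, -2.30 ± 0.76 for Fcgr4 and 1.196 ± 0.37 for Fcgr3, lay within the spread of their untreated cells, while Fcgr3 to Fcgr2b of wild type was 0.20 ± 0.59. The part of reads shared by Fcgr3 and Fcgr2b in their ratio was not tested. No test is given for these ratios.

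**Figure D3:**
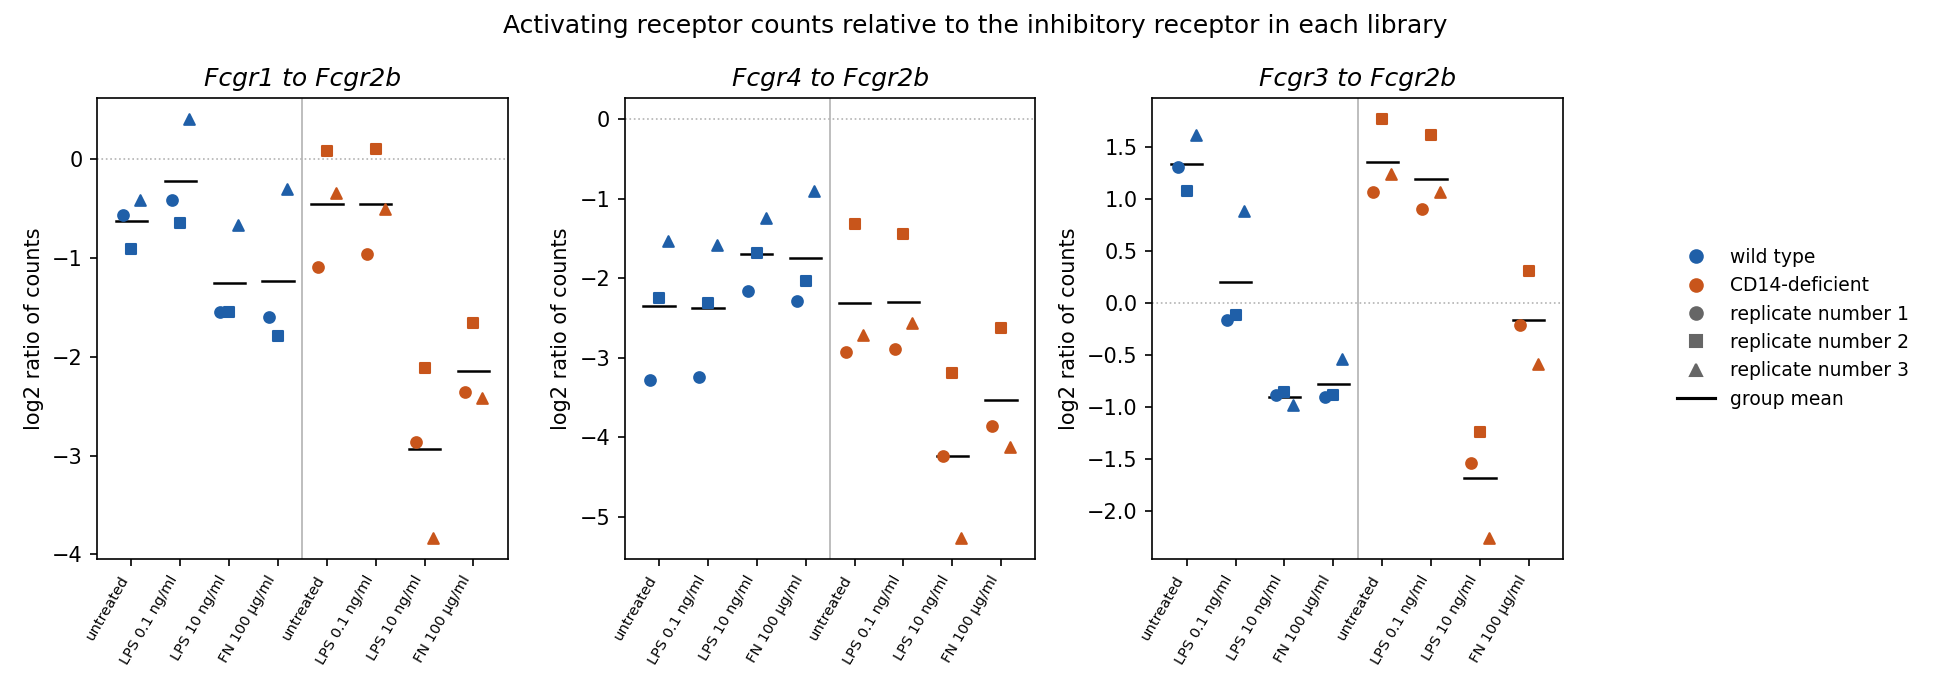
Log2 ratio of Fcgr1, Fcgr4 or Fcgr3 counts to Fcgr2b counts in each of the 24 libraries, wild type in blue and CD14-deficient in orange, with symbols for the replicate number and a line for the group mean. At LPS 10 ng/ml the Fcgr4 ratio averages -1.69 in wild type and -4.23 in CD14-deficient cells, and the Fcgr3 ratio is -0.90 and -1.68, against 1.33 and 1.36 untreated. Counts are not length-corrected, so the sign of a ratio does not say which gene is higher per kilobase.

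Genes that act with or below the Fc gamma receptors were taken from 8 lists with 118 genes, of which 103 were tested. In wild-type cells at LPS 10 ng/ml, 40 rose and 20 fell, with a median change of 0.37 against -0.01 for all genes, of which 23.3% rose and 26.1% fell. In CD14-deficient cells at FN, 26 rose and 7 fell (median 0.14, all genes -0.02), against 9.23% and 7.17% of all genes. Between the genotypes at FN, 18 were higher and 28 lower in CD14-deficient cells (median -0.26, all genes 0.02), against 21.0% and 17.6% of all genes. With the nested replicate block 42 rose and 22 fell in CD14-deficient cells at FN, against 21.5% and 22.5% of all genes. Scaling moved the other splits. With library totals 21 rose and 48 fell in wild type at LPS 10 ng/ml, against 10.9% and 55.7% of all genes. Between the genotypes at FN 42 were higher and 9 lower with that scaling, against 51.4% and 8.4%.

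For every list below, 23.3% of all genes were higher and 26.1% lower in wild type at LPS 10 ng/ml. These shares were 9.23% and 7.17% in CD14-deficient cells at FN, and 21.0% and 17.6% between genotypes at FN. A list with shares near these says nothing particular about its genes. Partners and adaptors next to the receptors moved unevenly. Of 7 tested ITAM-linked receptors and adaptors, 3 rose and none fell in wild type at LPS 10 ng/ml. Clec4e, the Mincle receptor that signals through the Fcer1g chain, rose by 6.52 ± 0.75 (adjusted p = 6.98e-07) and Clec4d, a related lectin receptor, by 1.93 ± 0.21 (4.74e-07). Tyrobp, which encodes the ITAM adaptor DAP12, was at 0.10 ± 0.11 (0.495) and its partner Trem2 at -0.10 ± 0.13 (0.599), and both were called lower with library totals. Clec4e rose by 5.72 ± 0.72 (1.81e-05) and Clec4d by 1.54 ± 0.21 (4.42e-05) in CD14-deficient cells at FN too, and Clec4e was lower there than in wild type (-1.999 ± 0.61, 0.0134). Leaving out CD14-deficient FN library 2 (0.058) or 3 (0.0655) ended this last call.

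Src family kinases phosphorylate the ITAM once receptors cluster. Of 9 Src family and Csk genes, 6 rose and 1 fell in wild type at LPS 10 ng/ml, among them Src (5.73 ± 0.40, adjusted p = 1.84e-09) and Lck (4.03 ± 0.38, 6.97e-08). In CD14-deficient cells at FN 4 rose and 2 fell, with Src at 3.66 ± 0.37 (1.29e-06). Between genotypes at FN 2 were higher and 5 lower in CD14-deficient cells, with Lck at -3.37 ± 0.37 (9.59e-07) and Src at -2.54 ± 0.35 (1.05e-05). Of 27 genes of Syk and proximal signalling, 9 rose and 7 fell in wild type at LPS 10 ng/ml, against 23.3% and 26.1% of all genes. The leading ones were Lcp2, the adaptor SLP-76, at 4.24 ± 0.20 (4.12e-11), and the phosphoinositide 3-kinase subunit and adaptor genes Pik3r5 (3.34 ± 0.23, 1.23e-09) and Pik3ap1 (2.01 ± 0.17, 2.22e-08). In CD14-deficient cells at FN 8 rose and 2 fell, with Pik3r5 at 3.03 ± 0.22 (3.66e-08), Lcp2 at 2.46 ± 0.19 (4.29e-08) and Syk at 1.92 ± 0.23 (1.01e-05). Between genotypes at FN 5 were higher and 5 lower, led by Lcp2 (-1.96 ± 0.18, 1.37e-07) and the exchange factors Vav3 (-1.92 ± 0.30, 4.84e-05) and Vav1 (1.64 ± 0.16, 1.85e-07).

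The list of ITIM receptors and inhibitory phosphatases is a general one, not a list of Fcgr2b partners, and also holds adaptors and Fcrlb. Of its 17 tested genes, 6 rose and 6 fell in wild type at LPS 10 ng/ml, against 23.3% and 26.1% of all genes. Inpp5d, which encodes SHIP1, the phosphatase recruited by the Fcgr2b receptor, fell (-2.30 ± 0.19, adjusted p = 8.86e-09), as did the inhibitory receptor gene Cd300a (-2.11 ± 0.22, 1.8e-07), while the Fc receptor-like gene Fcrlb rose (3.43 ± 0.42, 1.69e-06). In CD14-deficient cells at FN 4 rose and 1 fell, the latter being Inpp5d (-0.98 ± 0.18, 0.000736). Between genotypes at FN 6 were higher and 6 lower, with Fcrlb at -2.09 ± 0.40 (0.000329), the adaptor gene Dok3 at 1.68 ± 0.21 (3.63e-06) and Cd300a at 1.53 ± 0.21 (1.31e-05).

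Effector genes were followed by list, against the same shares of all genes. Of 5 NADPH oxidase genes, 4 rose and none fell in wild type at LPS 10 ng/ml, including the catalytic subunit Cybb (1.85 ± 0.21, adjusted p = 7.39e-07), Ncf1 (1.38 ± 0.18, 3.81e-06) and Ncf4 (1.04 ± 0.24, 0.0013), of which Ncf4 lost its call with library totals (0.24, 0.36). In CD14-deficient cells at FN 3 rose and none fell, with Ncf1 at 1.43 ± 0.18 (1.99e-05) and Cybb at 1.37 ± 0.21 (0.000139), and Cybb was lower than in wild type (-0.78 ± 0.21, 0.00588), a call also lost with library totals (-0.11, 0.56). Of 29 actin and phagocytic cup genes 10 rose and 5 fell in wild type, with the lipid kinase gene Pip5k1a (1.35 ± 0.15, 3.28e-07) and the small GTPase gene Rhog (1.29 ± 0.20, 3.11e-05) up and Wipf1, which encodes a WASP-binding protein, down (-1.66 ± 0.17, 1.75e-07), and 3 rose and 2 fell in CD14-deficient cells at FN. Of 4 other Fc receptor genes tested, 1 rose and 1 fell in wild type. Trim21, a cytosolic antibody receptor, rose by 4.18 ± 0.30 (2.82e-09), was at 0.57 ± 0.27 (0.177) in CD14-deficient cells at FN, and was lower there than in wild type (-3.70 ± 0.30, 3.13e-08). Of 5 complement receptor genes 1 rose, the C5a receptor gene C5ar1 at 2.099 ± 0.46 (0.000774), and it was lower in CD14-deficient cells at FN (-1.33 ± 0.45, 0.0235), a call lost without CD14-deficient FN library 2 (0.11) or 3 (0.0552), without wild-type FN library 1 (0.117) and with library totals (0.132).

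**Figure D4:**
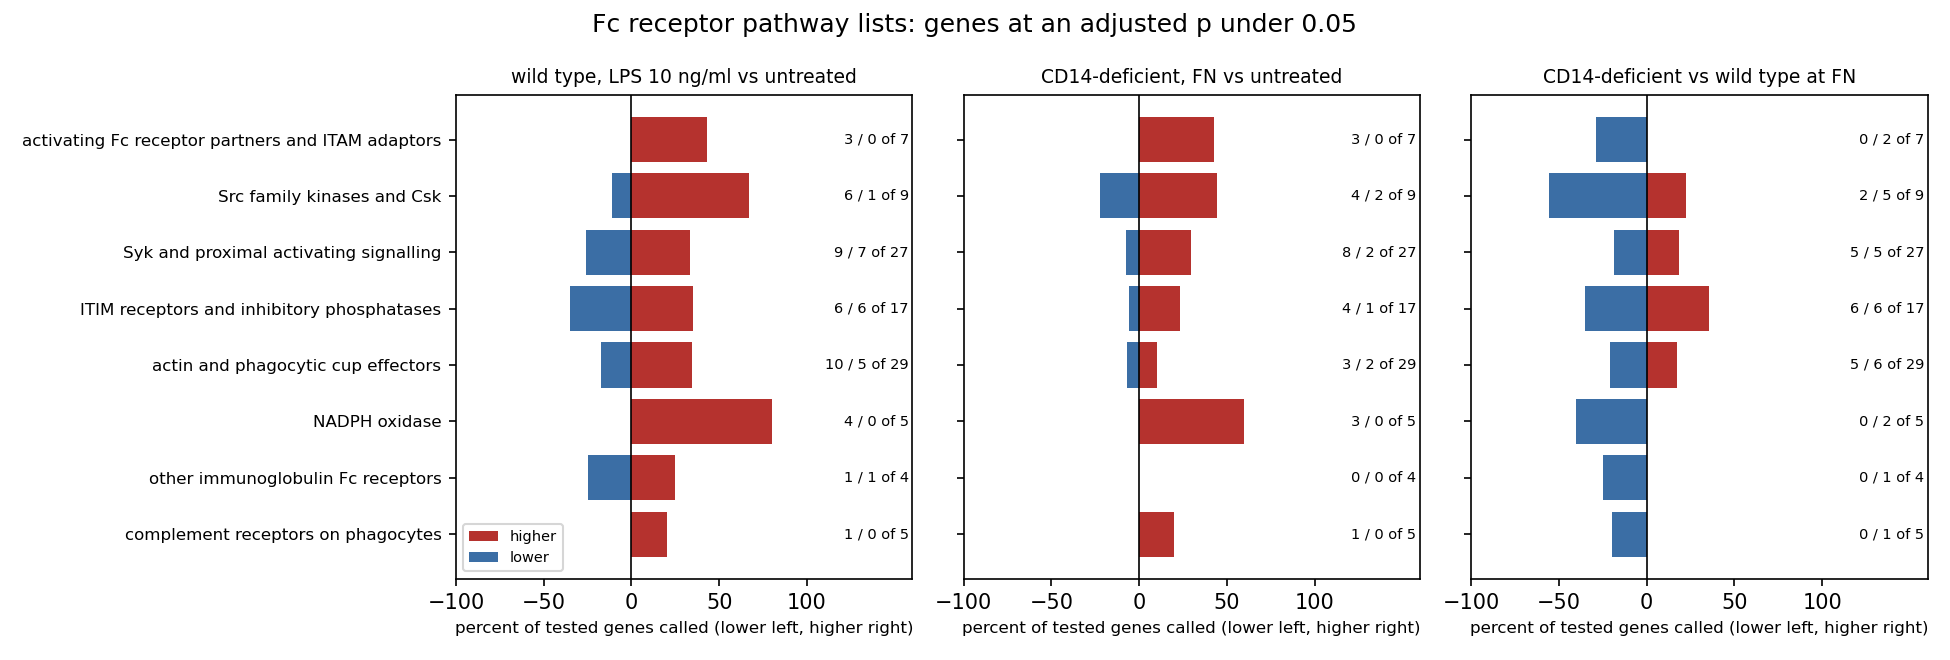
Percent of the tested genes of each list called lower (left of 0) or higher (right of 0) in wild type at LPS 10 ng/ml, in CD14-deficient cells at FN and between the genotypes at FN, with the numbers higher / lower of tested at the right. The Src family list has 6 of 9 genes higher and 1 lower in wild type at LPS 10 ng/ml, against 23.3% and 26.1% of all genes. Between the genotypes at FN it has 2 of 9 higher and 5 lower in CD14-deficient cells, against 21.0% and 17.6% of all genes.

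As a description over the 24 libraries, which share treatments and replicate numbers, log2 CPM of Fcgr1 and Fcgr4 correlated at r = 0.852. Fcgr2b and Fcer1g correlated at 0.873, and Fcgr4 and Fcer1g at 0.868. Within the 12 wild-type libraries Fcgr4 correlated with Fcer1g at 0.955, with Fcgr2b at 0.852 and with Fcgr1 at 0.733. Within the 12 CD14-deficient ones these values were 0.444, 0.198 and 0.809. Fcgr1 and Fcgr2b correlated at 0.691 within the 12 wild-type libraries and at -0.102 within the 12 CD14-deficient ones. Among 9581 genes with a mean of at least 5 CPM, the profile most like Fcgr1 was that of 1600014C10Rik (r = 0.957), followed by Rab7l1 (0.949) and BC013712 (0.933). For Fcgr4 it was Sass6 (0.967), then Epsti1 (0.96) and Pvrl4 (0.958). For Fcgr2b it was Tpm4 (0.973), then Kctd12 (0.969) and Stard7 (0.965), and for Fcer1g it was Fam129a (0.986), then Atp10a (0.981). Fcgr3 was matched less closely, by Ptpn18 (0.921), Tmem194 (0.914) and Dut (0.909), and its match to Ptpn18 was 0.947 within CD14-deficient and 0.687 within wild-type libraries.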

How the data were processed

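RNA from primary microglia was sequenced after TruSeq preparation on a HiSeq2000, per the labels' protocols. The submitters' processing notes name HTSeq 0.5.4 and DESeq, the mapper Bowtie2 2.1.0 with SAMtools 0.1.19, the read tools CASAVA 1.8.2 and FastQC 0.10.0, and the mm10 build; the annotation, strand setting and read length are not given in the sources used here. The deposited count table holds whole read counts per gene. The authors also deposited a normalized signal for 12889 genes, which for the 5 genes differed from the CPM used here by at most 0.392%.

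Counts were tested with edgeR 4.0.16 (R 4.3.3): filterByExpr (minimum count 10, minimum total 15), TMM scaling, a robust quasi-likelihood fit of the 8 groups with 16 residual degrees of freedom, 17 contrasts, and Benjamini-Hochberg adjustment over 13294 genes in each. Fold changes used a prior count of 0.125. Alternatives were DESeq2 1.42.0, limma 3.58.1 on log2 of the deposited signal, other scalings and filters, fits of the compared groups, replicate blocks, and leaving libraries out. Members' counts ran from 323 to 20788 per library.

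Libraries with the same replicate number deviated together: within a genotype they correlated at 0.67 to 0.969 over 9582 genes, those of other numbers at -0.803 to 0.444, and same-numbered libraries of the other genotype given the same treatment at 0.276 to 0.895. Among the libraries of its genotype given other treatments, each of the 24 correlated best with one carrying its own number. The values correlated were deviations from the group mean, which ties positive values for same numbers to negative ones for other numbers. The pairing comes from the data, since the series describes independent preparations, and a blocked value is printed where it changes a call.

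The members and lists were chosen with earlier results of these data known, and the Fcgr2b, Fcgr3 and Fcer1g promoters are not printed. Other genes are named by rule: Cd14, at most 3 called genes a list (those of greatest change), at most 2 uncalled ones (those of highest level), and the 3 genes most like each member. Some genes that the rule names are not reported here.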

Additional observations from a re-analysis of the deposited data

Results flagged for a closer look

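For 3 genes the response to FN differed between the genotypes by the interaction test in edgeR. The log2 response of CD14-deficient cells minus that of wild type was -2.29 for Fcgr1 (adjusted p = 0.00854), -2.88 for Fcgr4 (0.00871) and -0.73 for Fcer1g (0.00176). In wild type all 3 genes were higher after FN in 3 of 3 same-numbered pairs of libraries. In CD14-deficient cells Fcgr1 and Fcgr4 were higher in 0 of 3 pairs and Fcer1g in 3 of 3. With library totals the Fcer1g value was -0.08 (0.805).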

How the results depend on the processing

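With library totals in place of TMM, the members called were 2 between genotypes at FN and 1 in CD14-deficient FN against LPS 10 ng/ml. Between genotypes at FN 51.4% of all genes were higher and 8.4% lower. In wild type at LPS 10 ng/ml and at FN, Fcgr4 and Fcgr2b stayed called higher and Fcgr3 was called lower. Fcgr1 and Fcer1g lost their calls there. Of all genes 10.9% were higher and 55.7% lower in wild type at LPS 10 ng/ml. Pathway genes were 21 up and 48 down in wild type at LPS 10 ng/ml and 42 up and 9 down between genotypes at FN. Among the fold changes printed here, those that changed sign under that scaling were Tyrobp in wild type at LPS 10 ng/ml (-0.70), Fcgr4 in CD14-deficient cells at LPS 10 ng/ml (-0.018), Fcgr3 between genotypes at FN (0.074), and the interactions of Fcer1g at LPS 10 ng/ml (0.048) and Fcgr3 at FN (0.20). DESeq2 called 2 members for wild-type LPS 0.1 ng/ml, 1 for CD14-deficient FN, 3 between genotypes at LPS 0.1 ng/ml and 1 interaction at LPS 10 ng/ml. Fits of the compared groups alone called 1 in each of wild-type LPS 0.1 ng/ml, CD14-deficient FN, genotypes at LPS 0.1 ng/ml and CD14-deficient FN against LPS 10 ng/ml, and 0 between genotypes at LPS 10 ng/ml. Over all genes the fits of the compared groups called 1363 for CD14-deficient FN and 1034 for CD14-deficient FN against LPS 10 ng/ml. Between genotypes they called 240 genes at LPS 0.1 ng/ml and 804 at 10 ng/ml. Without the Rn45s-rich libraries 1 member was called for wild-type LPS 0.1 ng/ml, 1 between genotypes at LPS 10 ng/ml and 1 between wild-type doses. That setting called 2406 of all genes between wild-type doses. Leaving out all libraries numbered 3 was chosen after seeing the data. It gave 2 members for wild-type LPS 0.1 ng/ml and 1 each for CD14-deficient FN and for genotypes at LPS 0.1 and 10 ng/ml. Fcgr1 in CD14-deficient cells at LPS 10 ng/ml became 0.23. The other member counts of this paragraph, and those with 1 library left out, carry no share of all genes and are not read as results.

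The replicate block over all libraries called 1 member for wild-type LPS 0.1 ng/ml, 1 for CD14-deficient FN and 1 between genotypes at LPS 0.1 ng/ml, and 13 pathway genes down in CD14-deficient FN. The block nested in genotype called 5 members for wild-type LPS 0.1 ng/ml, 4 for CD14-deficient FN, 3 interactions at LPS 10 ng/ml and 5 at FN, with 42 pathway genes up and 22 down in CD14-deficient FN. Other calls it changed among the fold changes printed here stand beside their results.

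Leaving out 1 library at a time gave 0 to 1 member called for wild-type LPS 0.1 ng/ml, for CD14-deficient FN and for genotypes at LPS 0.1 ng/ml, 1 to 3 for genotypes at LPS 10 ng/ml, and 1 to 2 for CD14-deficient FN against LPS 10 ng/ml. Among the fold changes printed here, those that changed sign ran from -0.23 to 0.0064 for Trem2 in wild type at LPS 10 ng/ml, from -0.30 to 0.30 for Fcgr1 in CD14-deficient cells at LPS 10 ng/ml (0.30 without LPS 10 library 3, 0.0046 without untreated library 2), from -0.11 to 0.26 for Fcgr2b between genotypes at LPS 10 ng/ml and from -0.0020 to 0.67 for its interaction there, the lowest of the last pair without CD14-deficient LPS 10 library 1.

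Of 2096 recomputed member fold changes 1990 kept their direction and side of the threshold, 61 became called, 36 lost their call and 9 changed sign. The causes were not tested. An uncalled value, such as 0.78 ± 0.33 for Fcgr2b in CD14-deficient cells at FN, does not show that a gene did not differ. Genes called between genotypes at LPS 10 ng/ml ranged from 804 to 4097 over the settings (2114 as reported), for wild-type LPS 0.1 ng/ml from 1303 to 5520 (2075), for CD14-deficient FN from 1363 to 5851 (2180) and for the interaction at LPS 10 ng/ml from 404 to 2887 (702). The lowest and highest were 52 and 515 for CD14-deficient LPS 0.1 ng/ml (97), 240 and 2507 for genotypes at LPS 0.1 ng/ml (1237), 180 and 1779 for the interaction there (305), 2406 and 7576 for wild-type doses (4285) and 1034 and 5952 for CD14-deficient FN against LPS 10 ng/ml (2258), and 0 and 19 for untreated genotypes (1). The highest were 8778 for CD14-deficient LPS 10 ng/ml (5697), 7955 for genotypes at FN (5130), 6553 for the interaction at FN (3069) and 8346 for CD14-deficient doses (4883).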

Other observations

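For Fcgr1 at LPS 10 ng/ml and FN, the change in the pair of libraries numbered 3 was the highest in wild type and the lowest in CD14-deficient cells. After FN, Fcgr1 changed by 2.19 in wild-type pair 3 (log2 CPM, stimulated minus untreated library), against 0.89 and 0.69 in pairs 1 and 2. After LPS at 10 ng/ml it changed by -1.10 in CD14-deficient pair 3, against 0.24 and 0.21 in pairs 1 and 2. After FN the CD14-deficient pairs lay closer together, at -0.69, -0.85 and -1.05. Fcgr2b showed no such split after LPS at 10 ng/ml, with changes of 1.97, 1.63 and 2.30 in wild type and 2.01, 2.41 and 2.39 in CD14-deficient cells. For Fcgr4, wild-type pair 3 lay between the other pairs, at 2.59 after LPS at 10 ng/ml and 2.70 after FN.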
